A study of Mus musculus with 25 samples.

Results

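The contrast described here is the change of the lateral-medial difference between the anterior and the posterior palate of the mouse at E14.5. For each gene it is the posterior difference, lateral minus medial, less the anterior difference, lateral minus medial, so a positive value means that lateral gained on medial towards the posterior. Of the 37406 genes in the table, 11089 had at least 5 RPKM (a read count divided by transcript length and library depth) in at least 3 of the 12 medial and lateral libraries and were tested. All 4 compartments, anterior lateral, anterior medial, posterior lateral and posterior medial, were cut by laser from wild type CD1 embryos, with 3 libraries each. They belong to a study of 25 libraries in which the other 13 came from oral and nasal compartments. How many embryos went into a library is not given in the sources used here, so p-values measure the spread between these libraries.

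The secondary palate forms from a pair of shelves that grow down beside the tongue, swing up and fuse at the midline. Their mesenchyme comes largely from cranial neural crest. The anterior part is the source of the bony hard palate and the posterior part of the muscular soft palate, while the medial compartment holds the line of fusion and the lateral one the base of the shelf. Anterior and posterior mesenchyme are known to use different transcription factors, and signals such as Hedgehog, BMP, FGF and Wnt pass between epithelium and mesenchyme. A lateral-medial difference can therefore be asked for separately in each region.

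The 4 groups were unequal in quality. The median SD of a gene over the 3 libraries, on log2(RPKM + 0.1), was 0.15 in anterior lateral, 0.20 in anterior medial, 0.28 in posterior lateral and 0.65 in posterior medial. Posterior medial library 2 stood apart, with 604 of the tested genes listed at 0 against 14 to 33 in the 11 other libraries and correlations of 0.583 and 0.668, across genes, with its own group. The column headings of the study's gene tables place the 12 libraries on 5 sequencing runs, none of which held both lateral and medial libraries, so the lateral-medial difference of a region cannot be told apart from a difference between runs. For 8 libraries a lateral run and a medial run each spanned both regions, and the change of the contrast was also taken from these alone. The posterior lateral and posterior medial libraries numbered 1 came from runs of their own, and their alignments carry the name ERK2_WT in those headings although the labels give wild type CD1 for both. Values without these libraries are given beside some of the results below.

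The laser captured compartments carried mesenchymal transcripts in each library, with Prrx1, a homeobox gene of limb and head mesenchyme, between 36.1 and 163 RPKM and Twist1, a factor of cranial mesenchyme, between 50.8 and 233 RPKM. Epithelial RNA was also present. Krt14, a keratin of basal epithelium, lay between 1.19 and 11.4 RPKM in the 6 lateral libraries and between 21.3 and 51.0 RPKM in the 6 medial ones, and no marker of the epithelial list was at 0 throughout a group.

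Thbs2 was the one gene whose contrast passed an adjusted p of 0.05, that is 1 of 11089 genes or 0.00902%. Thbs2 (gene ID 21826, chr17:14802507-14831269 in mm9) encodes thrombospondin 2, a secreted matricellular protein that binds cells, proteases and collagen-associated matrix. Its level in anterior lateral was 15.8, 20.4 and 18.0 RPKM, and in anterior medial 61.5, 57.2 and 50.6 RPKM. In the posterior palate it was 47.1, 70.2 and 56.2 RPKM in lateral and 23.0, 19.7 and 29.8 RPKM in medial. Thus Thbs2 was high in the medial compartment anteriorly and in the lateral compartment posteriorly, and in neither region did a lateral library overlap a medial one. The lateral-medial difference on the log2 scale was -1.64 ± 0.22 (SE, n = 3 per group) in the anterior palate and 1.26 ± 0.22 in the posterior palate. Both SEs come from 1 spread of the gene, shared by the 4 groups. Their difference of 2.90 ± 0.31 had an adjusted p of 0.0296 with limma and Benjamini-Hochberg adjustment over all genes tested. Both compartments took part, since posterior lateral exceeded anterior lateral by 1.66 on the log2 scale and posterior medial lay 1.24 below anterior medial (log2 difference -1.24). Over 27 alternative ways to process the data the Thbs2 contrast lay between 2.69 and 3.06 and its adjusted p between 0.00743 and 0.844. Leaving out any 1 of the 6 anterior libraries, posterior lateral 2 or 3, or posterior medial 1 took it past 0.05 (adjusted p = 0.0577 to 0.188), and the 8 libraries of shared runs gave 3.00 ± 0.44 with an adjusted p of 0.844. With the libraries blocked by replicate number, no gene passed in limma (lowest adjusted p = 0.216). Thbs2 also did not pass with the sequencing run as a factor.

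The genes with the lowest p in each direction of the contrast were Thbs2 and Slit2, the latter with an adjusted p of 0.106 in limma. Their promoters are shown for that reason alone. Each runs from 250 bases before to 50 bases after the start of the RefSeq gene, 5′ to 3′ on the gene's strand, in GRCm38.p6 (the values above use mm9). Thbs2 is at chr17:14694213-14694512 on the minus strand and Slit2 at chr5:47982905-47983204 on the plus strand.
Thbs2: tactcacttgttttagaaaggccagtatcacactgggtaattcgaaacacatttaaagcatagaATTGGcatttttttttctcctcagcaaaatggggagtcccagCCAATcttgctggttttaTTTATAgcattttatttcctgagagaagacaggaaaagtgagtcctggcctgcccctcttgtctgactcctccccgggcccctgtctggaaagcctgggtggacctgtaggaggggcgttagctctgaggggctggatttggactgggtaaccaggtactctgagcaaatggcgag
Slit2: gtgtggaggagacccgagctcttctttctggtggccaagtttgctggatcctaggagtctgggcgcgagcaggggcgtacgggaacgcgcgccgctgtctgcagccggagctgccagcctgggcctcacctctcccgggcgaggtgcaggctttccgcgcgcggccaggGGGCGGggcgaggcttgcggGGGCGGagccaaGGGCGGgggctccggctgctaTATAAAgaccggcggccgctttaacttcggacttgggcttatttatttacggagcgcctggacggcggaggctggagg
Capitals mark 3 core promoter motifs searched on both strands, none of which overlapped another in these windows. The TATA box, as the letters TATAAA, was found 1 time in each window and in 13.6% of 32851 RefSeq promoters of this length. The CCAAT box, as those letters, was found 2 times in the Thbs2 window, 0 times in that of Slit2 and in 37.4% of all promoters. The GC box, as the letters GGGCGG, was found 0 times in the Thbs2 window, 3 times in that of Slit2 and in 35.7% of all promoters. These matches describe the letters of the windows and nothing more.

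The study compared pairs of compartments with thresholds of over 2-fold and P under 0.05. By these, with P unadjusted, 268 genes (2.42%) differed in their lateral-medial contrast between the regions, 133 (1.20%) with lateral gaining on medial towards the posterior and 135 (1.22%) with lateral losing. An unadjusted P under 0.05 alone was reached by 373 genes (3.36%). Genes at these thresholds, other than Thbs2, are therefore given below with their values and not as changed. In 219 of the 268 the lateral-medial difference had opposite signs in the 2 regions. The anterior difference was the larger in 141 and the posterior one in 127. The change lay more in the medial compartment (posterior against anterior) in 163 of them and more in the lateral one in 105. The 268 were picked by the size of this same change, which favours opposite signs. The posterior medial group also had the widest spread, a median SD of 0.65. These counts therefore describe the selected genes and are no evidence for a pattern. Across all tested genes the median contrast was 0.09. The simple differences reached the same thresholds for 212 genes (1.91%) between lateral and medial in the anterior palate, 309 (2.79%) in the posterior palate, 295 (2.66%) between the regions in lateral and 527 (4.75%) between the regions in medial.

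**Figure D1:**
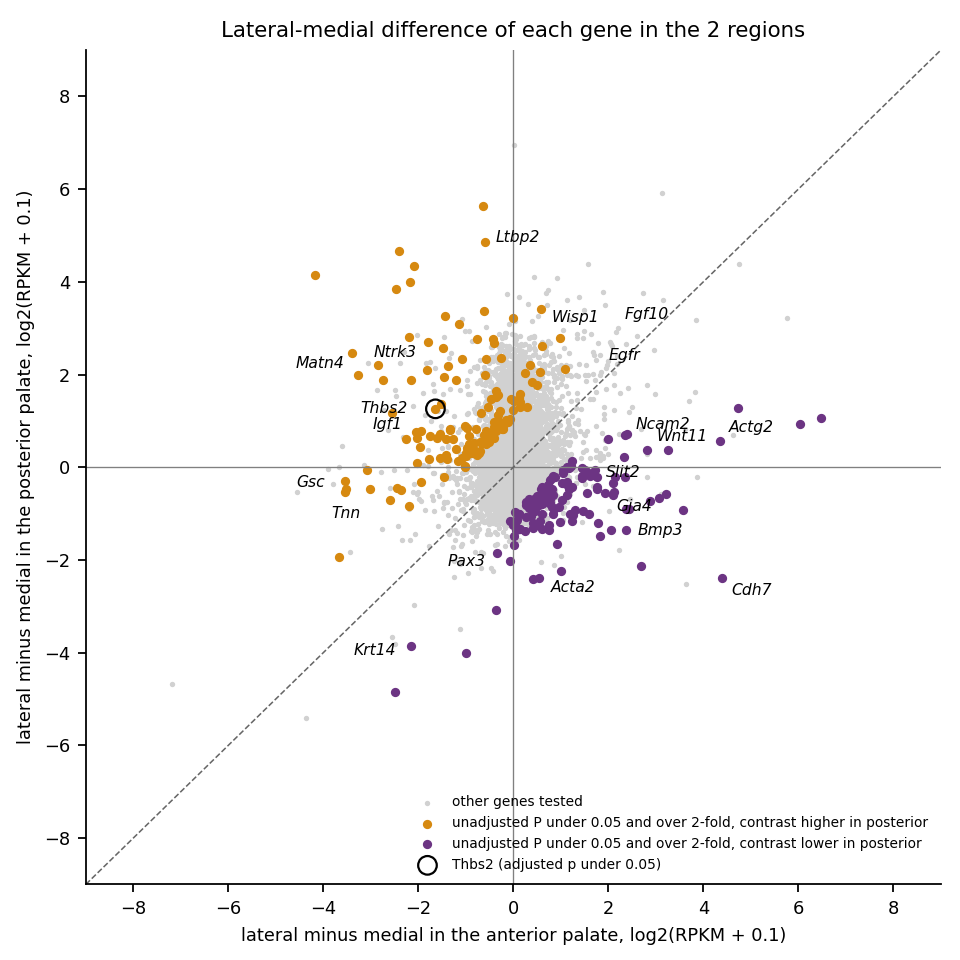
Each point is 1 of 11089 genes, with the lateral minus medial difference in the anterior palate on the x axis and in the posterior palate on the y axis, both on log2(RPKM + 0.1). Genes on the dashed line had the same difference in both regions, the 133 orange and 135 purple genes lie away from it, and Thbs2 (circled) sits at -1.64 and 1.26.

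The filter on low values bears on these counts. Just inside it, 338 tested genes reached 5 RPKM in exactly 3 libraries, and just outside it 406 reached it in exactly 2. A group of 46 genes passed through the 3 libraries of a single group, 25 of them through anterior lateral, and 15 of the 46 are among the 268. Among these 15 are Matn4 and Acan (through anterior medial), Cdh7, P2ry1 and Ppbp (posterior medial), Ltbp2 (posterior lateral) and Actg2 (anterior lateral). Each was high in the group that let it pass, so its contrast is a description and gives no support. Gkn3, a gastrokine of stomach epithelium, is another. It was listed at 7.16, 5.22 and 7.34 RPKM in anterior lateral, at 0.595, 0 and 0 RPKM in posterior lateral and at 0 in all 6 medial libraries. Mirlet7e, the gene of the microRNA let-7e, was listed at 9.10, 7.16 and 10.6 RPKM in anterior lateral, at 0.831 RPKM in posterior lateral 3 and at 0 in the other 8 libraries. Its hairpin has 93 bases, so the anterior lateral values would stand for 2.00 to 2.54 reads each at the depth that the table implies (2.33 to 5.93 M reads a library). The same step gives 0.180 reads in posterior lateral 3, less than a whole read. The length, the depth or the counting of whole reads therefore does not hold there, and these read numbers are rough. The mature miRNA from RefSeq is given 5′ to 3′ with its seed, bases 2 to 8, in capitals, to show which small RNA is meant, although the libraries were not made from small RNA.
mmu-let-7e-5p: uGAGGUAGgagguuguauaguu

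Lateral and medial libraries did not overlap in the anterior palate for 2395 genes (21.6%) and in the posterior palate for 768 genes (6.93%). They were apart in both regions with opposite directions for 48 genes (0.433%), of which lateral was the higher in the posterior palate for 28 and in the anterior palate for 20. For 173 genes (1.56%) they were apart in both regions with the same direction, lateral higher in 97 and medial higher in 76. Of the 48 genes, 32 also reached the study thresholds, 20 with lateral gaining towards the posterior and 12 with lateral losing. Beside Thbs2 they include Sertad4, Ptprv, Igf1, Adamts6, Ntrk3 and Cntn6 among the 20, and Cdh7, P2ry1, Scube1 and Pcdh10 among the 12. Cdh7 and P2ry1 passed the filter through posterior medial alone.

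Sertad4 encodes a nuclear protein with a SERTA domain. It was read at 29.9, 21.7 and 23.9 RPKM in anterior lateral and 40.7, 43.5 and 45.1 RPKM in anterior medial. Posteriorly it was at 52.1, 59.1 and 58.5 RPKM in lateral and 29.3, 32.9 and 33.3 RPKM in medial. Its 4 groups did not overlap except for anterior lateral 1 (29.9 RPKM) with posterior medial, and its contrast was 1.61 ± 0.24 (log2, SE) with an adjusted p of 0.166. Ptprv, a receptor-type tyrosine phosphatase known from bone cells, was at 0.961 to 2.96 RPKM in anterior lateral and 6.26 to 10.2 RPKM in anterior medial, against 6.40 to 26.3 RPKM in posterior lateral and 3.06 to 4.69 RPKM in posterior medial. Its contrast of 4.03 ± 0.75 had an adjusted p of 0.271. Ntrk3, the receptor of neurotrophin 3, was lower in both posterior groups than in either anterior one. It was at 35.6 to 44.3 RPKM in anterior medial and 9.89 to 12.9 RPKM in anterior lateral, but at 0.505 to 3.91 RPKM in posterior medial and 4.21 to 6.59 RPKM in posterior lateral, with a contrast of 3.92 ± 0.80 (adjusted p = 0.326).

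**Figure D2:**
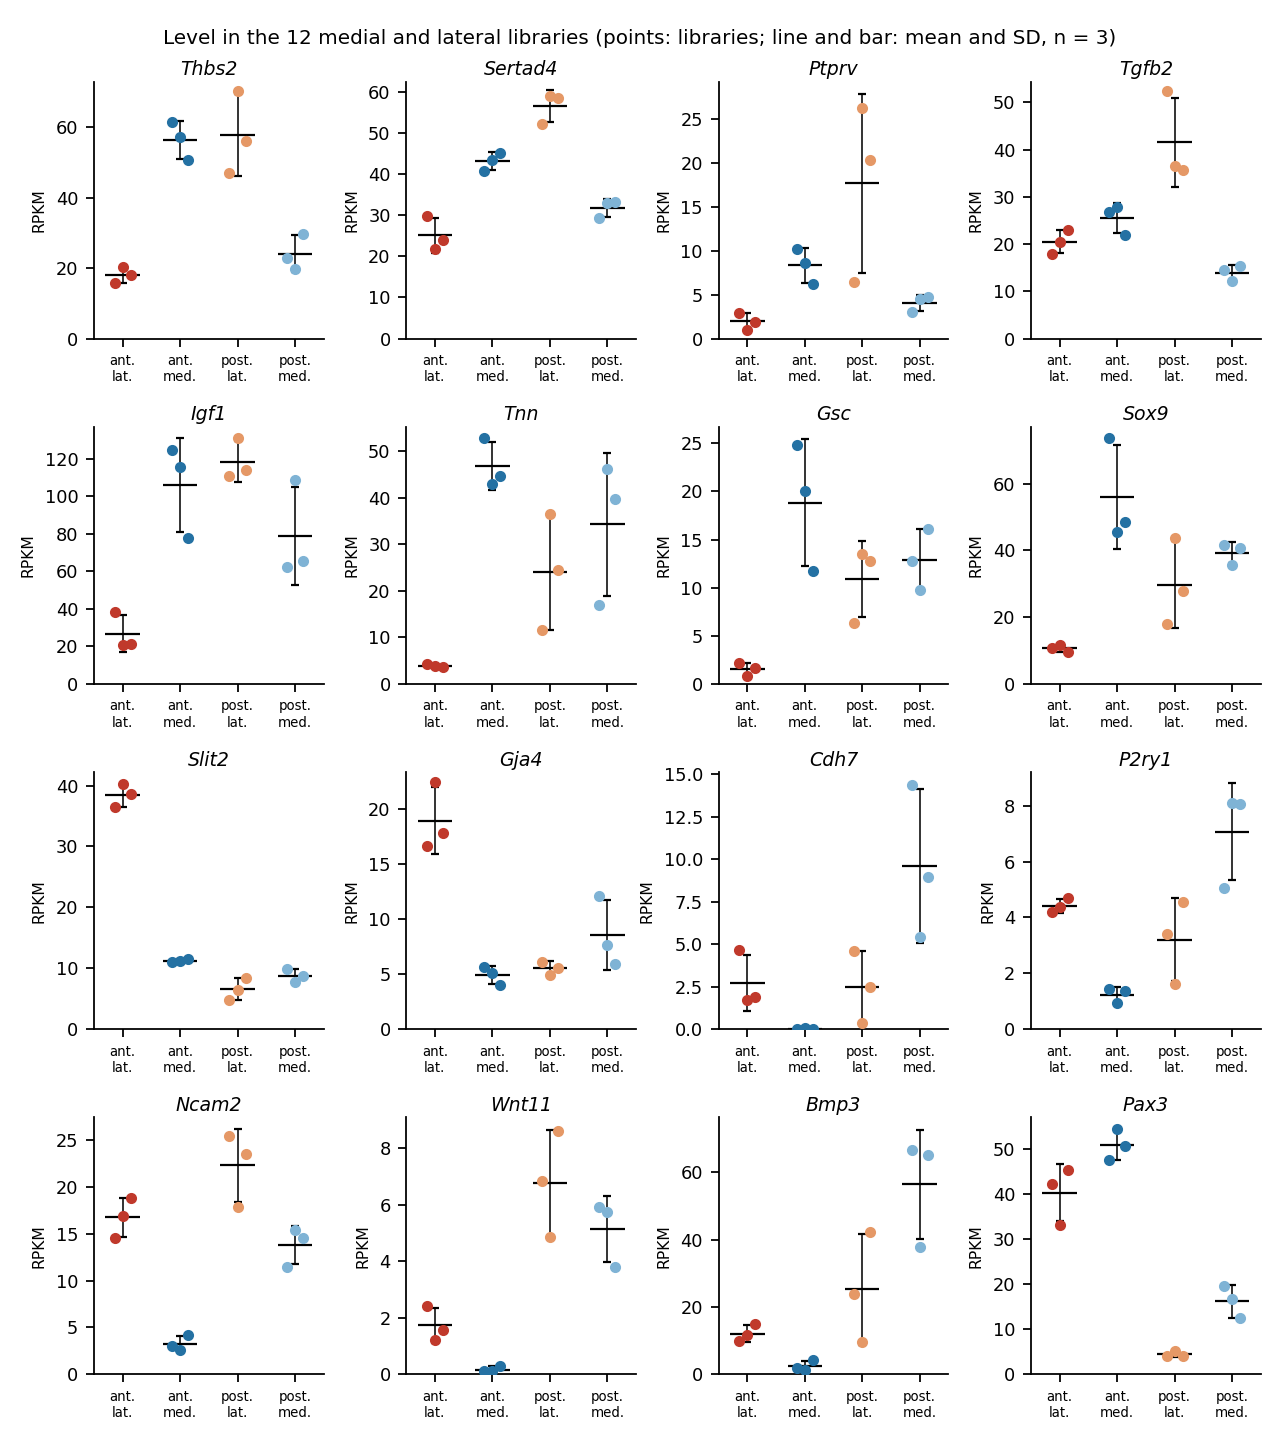
Levels in RPKM (y axis, linear from 0) of 16 named genes in the 3 libraries of each of the 4 compartments (x axis), with mean and SD. Thbs2, Sertad4 and Ptprv change sides between the regions, Tnn, Gsc and Sox9 are low in anterior lateral alone, and Slit2 and Gja4 are high in anterior lateral alone.

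Of the 45 tested genes of a list of 49 mesenchymal matrix genes, 10 reached the study thresholds with lateral gaining towards the posterior (Thbs2, Adamts6, Tnn, Wisp1, Antxr1, Smoc2, Thbs1, Prelp, Col12a1 and Fmod) and none with lateral losing, against 1.20% and 1.22% of all genes. The median contrast of the list was 0.33 (0.09 over all genes). Without posterior medial 2 these counts were 12 and 0, and without both posterior libraries numbered 1 they were 12 and 2. The list holds genes the study names from these libraries, and it was chosen with results known, so its counts are a description.

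Tnn encodes tenascin W, a matrix protein of bone-forming and stromal tissue. It was at 4.18, 3.86 and 3.66 RPKM in anterior lateral and at 52.8, 43.0 and 44.8 RPKM in anterior medial. In the posterior palate it was at 11.5, 36.6 and 24.4 RPKM in lateral and 17.0, 46.3 and 39.8 RPKM in medial. The anterior groups were far apart and the posterior groups overlapped, with lateral-medial differences of -3.55 ± 0.44 and -0.53 ± 0.44 (log2, SE) and a contrast of 3.02 ± 0.63 (adjusted p = 0.326). Adamts6, a secreted metalloprotease, changed sides as Thbs2 did. It was at 2.47 to 4.68 RPKM in anterior lateral against 8.55 to 8.80 RPKM in anterior medial, and at 9.47 to 19.1 RPKM in posterior lateral against 1.44 to 5.29 RPKM in posterior medial (contrast 3.39 ± 0.65, adjusted p = 0.291). Wisp1, a matricellular protein of the CCN family and a Wnt target, was higher in lateral in both regions, and more so posteriorly. It was at 5.67 to 6.99 RPKM in anterior lateral and 2.49 to 3.70 RPKM in anterior medial, and at 11.6 to 20.2 RPKM in posterior lateral and 1.65 to 2.76 RPKM in posterior medial, with differences of 0.99 ± 0.27 and 2.79 ± 0.27 and a contrast of 1.80 ± 0.38 (adjusted p = 0.341).

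Of 10 table entries tested for 9 of 17 cartilage genes, 5 reached the study thresholds with lateral gaining and none with lateral losing. The shares of all genes were 1.20% and 1.22%. The 5 were Matn4, Sox9, Col2a1, Acan and 1 of the 2 entries of Sox5. Matn4 and Acan passed the filter through anterior medial alone, where they were high. The median contrast of the list was 1.73. The median lateral-medial difference of the list was -2.04 in the anterior and 0.34 in the posterior palate. Without posterior medial 2 the counts were 8 and 0, and without both posterior libraries numbered 1 they were 7 and 0. The summed level of all 17 entries of the list was 51.0 to 61.2 RPKM in anterior lateral against 130 to 223 RPKM in anterior medial, and 89.2 to 195 RPKM in posterior lateral against 118 to 188 RPKM in posterior medial. The anterior lateral compartment was thus the low one and the 3 others overlapped. Col2a1, the main collagen of cartilage, was at 8.94 ± 0.811 RPKM (SD, n = 3) in anterior lateral, 18.7 ± 7.14 RPKM in anterior medial, 27.5 ± 3.89 RPKM in posterior lateral and 20.6 ± 2.10 RPKM in posterior medial, with no overlap of lateral and medial in either region. Acan, the core protein of the proteoglycan aggrecan, was at 0.624 to 1.51 RPKM in anterior lateral and 6.44 to 7.74 RPKM in anterior medial, and at 0.245 to 3.48 and 0.114 to 1.20 RPKM in the overlapping posterior groups. In bulk samples, fewer cells of a type and less RNA per cell cannot be told apart.

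Among growth factors, Igf1, insulin-like growth factor 1, had a pattern near that of Thbs2. It was at 38.1, 20.6 and 21.4 RPKM in anterior lateral and 125, 116 and 77.8 RPKM in anterior medial. Posteriorly it was at 111, 131 and 114 RPKM in lateral and 62.2, 109 and 65.5 RPKM in medial. Anterior lateral was low and apart from the rest, and in the posterior palate lateral lay just above medial, with a contrast of 2.65 ± 0.44 (adjusted p = 0.168). Tgfb2, a TGF-beta ligand with a known role in palate fusion, was at 18.0 to 22.9 RPKM in anterior lateral and an overlapping 21.9 to 27.9 RPKM in anterior medial, but at 35.7 to 52.3 RPKM in posterior lateral and 12.1 to 15.3 RPKM in posterior medial. Its posterior difference of 1.55 ± 0.21 had an adjusted p of 0.0385, and its contrast of 1.87 ± 0.30 an adjusted p of 0.168. Ltbp2, a latent TGF-beta binding protein of microfibrils, was also set apart posteriorly, at 10.3 to 17.3 RPKM in lateral against 2.64, 0 and 0.220 RPKM in medial, while the anterior values of 1.55 to 3.09 and 2.73 to 4.70 RPKM overlapped. Its contrast was 5.46 ± 1.31 (adjusted p = 0.550). It was 4.38 without posterior medial 2, where Ltbp2 is listed at 0 (adjusted p = 0.196), and 6.77 without posterior medial 1 (adjusted p = 0.0338). Ltbp2 passed the filter through posterior lateral alone, so these values are a description.

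The BMP and TGF-beta list had 5 of 35 genes with lateral gaining, Tgfb2 and Ltbp2 among them, and 1 with lateral losing, Bmp3, against 1.20% and 1.22% of all genes. Ltbp2 passed the filter through posterior lateral alone, so its place in this count gives no support. Bmp3 encodes a BMP family ligand that can oppose other BMPs. It was at 9.76, 11.5 and 15.0 RPKM in anterior lateral and 1.94, 1.28 and 4.22 RPKM in anterior medial. In the posterior palate it was at 23.9, 9.50 and 42.2 RPKM in lateral and 66.6, 37.7 and 65.0 RPKM in medial. Lateral was higher anteriorly with no overlap, medial was mostly higher posteriorly, and the contrast was -3.74 ± 0.78 (adjusted p = 0.326).

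Of 38 tested genes of the Wnt pathway, 3 reached the study thresholds with lateral gaining (Wisp1, Fzd8 and Wif1) and 3 with lateral losing (Wnt11, Fzd4 and Dkk2). The shares of all genes were 1.20% and 1.22%. Wnt11, a ligand of non-canonical Wnt signalling, was at 2.42, 1.22 and 1.57 RPKM in anterior lateral and 0.0981, 0.0978 and 0.297 RPKM in anterior medial. Posteriorly it was at 6.84, 4.86 and 8.63 RPKM in lateral and 5.91, 5.73 and 3.80 RPKM in medial. Anterior medial was thus near 0 while the posterior groups overlapped, and the contrast was -2.45 ± 0.51 (adjusted p = 0.326). Under quantile normalization the list held 0 genes with lateral gaining and 4 with lateral losing. In limma none of 12 Hedgehog genes, 0 of 19 FGF and EGF genes and 0 of 32 proliferation genes reached the study thresholds. An unadjusted P under 0.05 was reached by 0, 1 and 0 of them. Without both posterior libraries numbered 1, the FGF and EGF list had 2 genes with lateral gaining and the proliferation list 2 with lateral losing. Since only 2.42% of all genes reached the thresholds, a count of 0 in lists this short says little about them. The Notch list had 2 of 13, Jag1 and Hes1, with lateral gaining and none with lateral losing, but 1 and 3 without posterior medial 2. The retinoic acid list had 1 of 14, Crabp1, with lateral gaining and none with lateral losing. It had 4 and 1 without both posterior libraries numbered 1. With all 12 libraries, 1.20% of all genes were at the thresholds with lateral gaining and 1.22% with lateral losing.

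**Figure D3:**
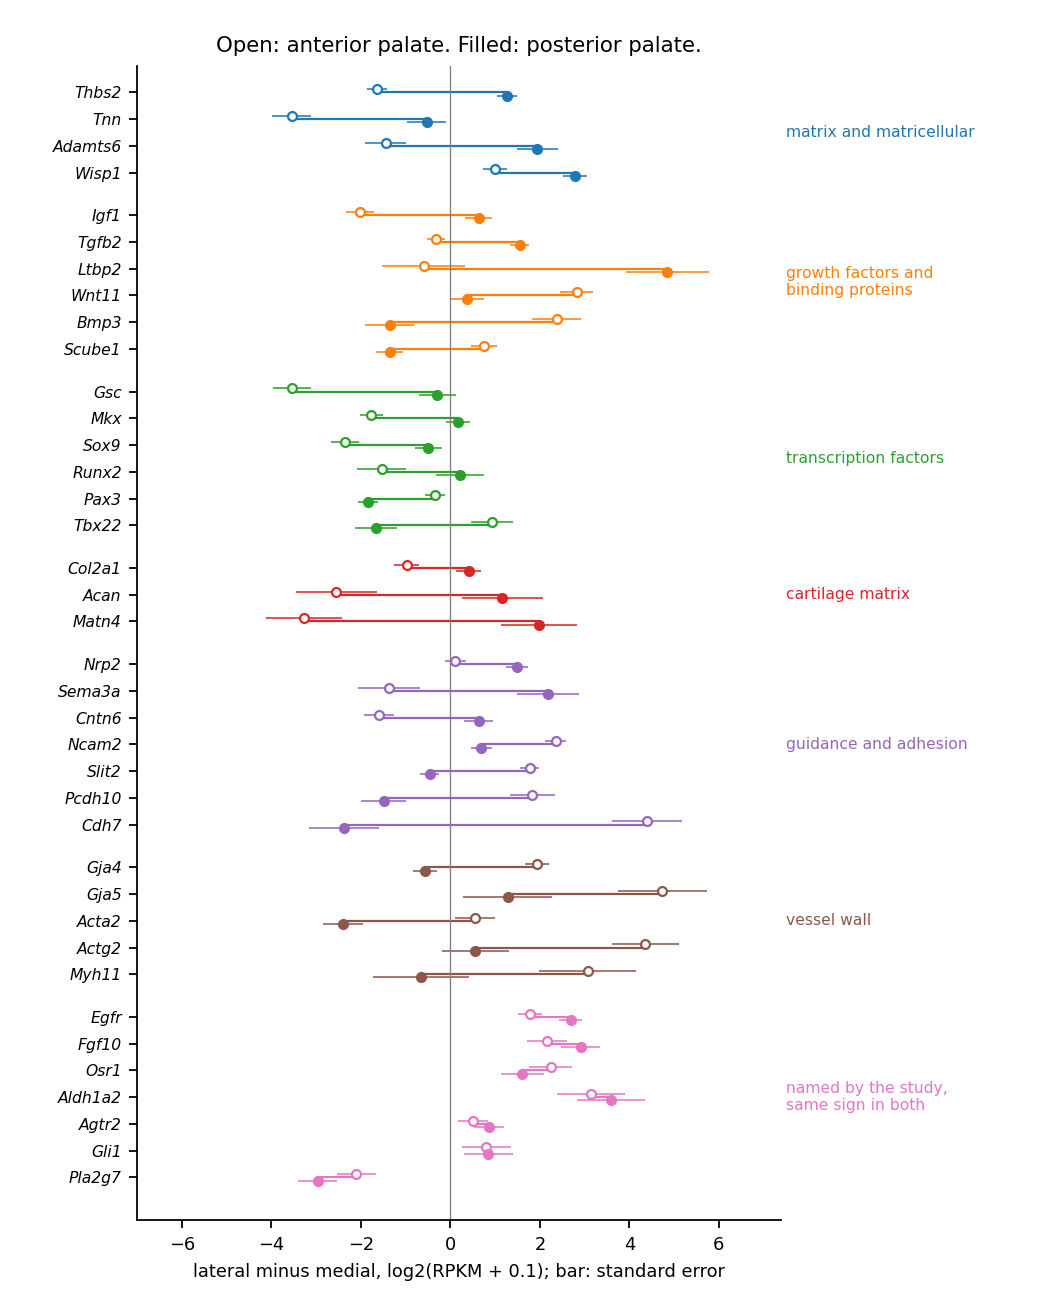
Lateral minus medial difference (x axis, log2(RPKM + 0.1), bars of 1 SE) in the anterior palate (open) and posterior palate (filled) of named genes grouped by role. Thbs2 and Adamts6 cross 0 from left to right, Cdh7, Pcdh10 and Bmp3 from right to left, and the genes in the last group keep their side.

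Of 48 palate transcription factors tested, 5 reached the thresholds with lateral gaining and 4 with lateral losing, against 1.20% and 1.22% of all genes. Without both posterior libraries numbered 1 the counts were 10 and 4, and without posterior medial 2 they were 7 and 4. Gsc (goosecoid), a homeobox factor of craniofacial mesenchyme, was at 2.14, 0.851 and 1.65 RPKM in anterior lateral and 11.7 to 24.8 RPKM in anterior medial. In the posterior palate it was at 6.31, 13.5 and 12.8 RPKM in lateral and 12.8, 9.79 and 16.1 RPKM in medial. The wide anterior gap of -3.54 ± 0.42 was not seen posteriorly, where the groups overlapped at -0.29 ± 0.42, and the contrast was 3.25 ± 0.59 (adjusted p = 0.263). Sox9, the factor that drives cartilage formation, was similarly low in anterior lateral, at 9.64 to 11.6 RPKM against 45.5 to 73.8 RPKM in anterior medial, with overlapping posterior values of 17.8 to 43.8 and 35.7 to 41.5 RPKM (contrast 1.87 ± 0.44, adjusted p = 0.504). Mkx, a homeobox factor of tendon, was at 5.91 to 9.36 RPKM in anterior lateral and between 20.2 and 34.3 RPKM in the 9 other libraries (contrast 1.94 ± 0.37, adjusted p = 0.291).

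Pax3, a paired box factor of neural crest and muscle precursors, went the other way. It was at 42.3, 33.2 and 45.4 RPKM in anterior lateral and 47.6, 54.5 and 50.8 RPKM in anterior medial, and at 4.01, 5.16 and 4.09 RPKM in posterior lateral and 19.7, 16.6 and 12.4 RPKM in posterior medial. It was lower in both posterior groups, and the medial excess was wider there, with a posterior difference of -1.84 ± 0.22 (adjusted p = 0.0173), an anterior one of -0.35 ± 0.22 (adjusted p = 1.00) and a contrast of -1.49 ± 0.31 (adjusted p = 0.326). Tbx22, a T-box factor whose loss is known to cause cleft palate, was at 3.26 to 6.12 and an overlapping 1.38 to 3.58 RPKM in anterior lateral and medial. Posteriorly it was at 17.0 to 28.8 RPKM in lateral and 41.4 to 120 RPKM in medial, with 120 RPKM in posterior medial 2, and its contrast was -2.58 ± 0.67 (adjusted p = 0.637).

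Slit2, a secreted ligand of Robo receptors that repels axons and migrating cells, had the lowest p of the genes with lateral losing. It was at 36.4, 40.3 and 38.6 RPKM in anterior lateral, 11.2 ± 0.256 RPKM (SD, n = 3) in anterior medial, 4.75, 6.37 and 8.36 RPKM in posterior lateral and 9.79, 7.77 and 8.74 RPKM in posterior medial. Anterior lateral stood alone above the 9 other libraries, and the posterior groups overlapped. The anterior difference was 1.77 ± 0.21 (adjusted p = 0.0151), the posterior one -0.46 ± 0.21 (adjusted p = 0.667) and the contrast -2.23 ± 0.30, with an adjusted p of 0.106. Over the alternatives its contrast lay between -2.55 and -1.94, and it passed an adjusted p of 0.05 in 7 of 27, among them the fit without posterior medial 2 (adjusted p = 0.0405). Of 32 table entries of guidance ligands and receptors, 6 reached the study thresholds with lateral gaining, both entries of Sema3a among them, and 2 with lateral losing. The shares of all genes were 1.20% and 1.22%. Gdnf, also among the 6, passed the filter through anterior medial alone, so its place in the count gives no support. It was at 6.86 to 7.73 RPKM there and at 0 to 0.736 RPKM elsewhere. Sema3a, a repellent semaphorin, was at 4.06 to 4.85 RPKM in anterior lateral against 10.4 to 14.4 RPKM in anterior medial and at 6.85 to 24.0 RPKM in posterior lateral against 0.780 to 6.50 RPKM in posterior medial in its first entry (contrast 3.55 ± 0.99). Its co-receptor family member Nrp2 differed posteriorly, at 26.4 to 30.5 RPKM in lateral and 8.32 to 11.5 RPKM in medial, while the anterior values of 18.1 to 32.8 and 21.6 to 25.6 RPKM overlapped (contrast 1.38 ± 0.34, adjusted p = 0.561).

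Cdh7, a cadherin, was at 4.64, 1.68 and 1.86 RPKM in anterior lateral and 0, 0.0695 and 0.00281 RPKM in anterior medial. In the posterior palate it was at 4.60, 0.331 and 2.45 RPKM in lateral and 14.4, 5.43 and 8.98 RPKM in medial. The side changed between the regions with no overlap in either, and the contrast of -6.78 ± 1.10 (adjusted p = 0.168) depends on the near-0 values, since a pseudocount enters each log2 value. Pcdh10, a protocadherin, was at 2.47 to 5.81 RPKM in anterior lateral and 0.879 to 1.30 RPKM in anterior medial, and at 3.40 to 15.2 RPKM in posterior lateral and 18.2 to 28.9 RPKM in posterior medial (contrast -3.33 ± 0.70, adjusted p = 0.339). Ncam2, a neural cell adhesion molecule, was higher in lateral in both regions with no overlap, by 2.35 ± 0.23 (log2, adjusted p = 0.00845) anteriorly and 0.69 ± 0.23 posteriorly (contrast -1.67 ± 0.33, adjusted p = 0.326). Cntn6, a contactin, was the reverse case, at 2.57 to 5.23 and 6.71 to 14.7 RPKM in anterior lateral and medial and at 10.7 ± 0.340 RPKM (SD, n = 3) in posterior lateral and 6.89 ± 0.660 RPKM in posterior medial (contrast 2.23 ± 0.46, adjusted p = 0.326).

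Among genes of the vessel wall, Gja4, a gap junction protein of arteries, was at 16.6, 22.4 and 17.8 RPKM in anterior lateral, 5.65, 5.07 and 3.99 RPKM in anterior medial, 6.12, 4.91 and 5.55 RPKM in posterior lateral and 12.1, 7.60 and 5.90 RPKM in posterior medial. Anterior lateral was above all 9 other libraries, and the contrast was -2.49 ± 0.38 (adjusted p = 0.166). Gja5, the other arterial connexin, was at 28.1 to 42.4 RPKM in anterior lateral and between 0.134 and 6.84 RPKM elsewhere (contrast -3.45 ± 1.42, adjusted p = 0.964). Of 15 endothelial markers these 2 alone reached the study thresholds, both with lateral losing (1.22% of all genes). The median lateral-medial difference of the list was 0.45 in the anterior and 0.48 in the posterior palate. The summed level of the list was 313 to 349 RPKM in anterior lateral and 204 to 243 RPKM in anterior medial. It was 238 to 294 RPKM in posterior lateral and 160 to 301 RPKM in posterior medial. Of 10 smooth muscle and pericyte markers, 3 reached the thresholds, all with lateral losing (1.22% of all genes). Actg2, a smooth muscle actin, was at 17.0 to 21.9 RPKM in anterior lateral and between 0 and 1.94 RPKM elsewhere (contrast -3.79 ± 1.06, adjusted p = 0.797). It passed the filter through anterior lateral alone, so its place among the 3 gives no support. Acta2, the vascular smooth muscle actin, overlapped anteriorly at 52.2 to 53.6 and 21.5 to 52.9 RPKM and was lower in lateral posteriorly, at 11.9 ± 4.59 RPKM (SD, n = 3) against 65.7 ± 34.9 RPKM (contrast -2.95 ± 0.63, adjusted p = 0.339).

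**Figure D4:**
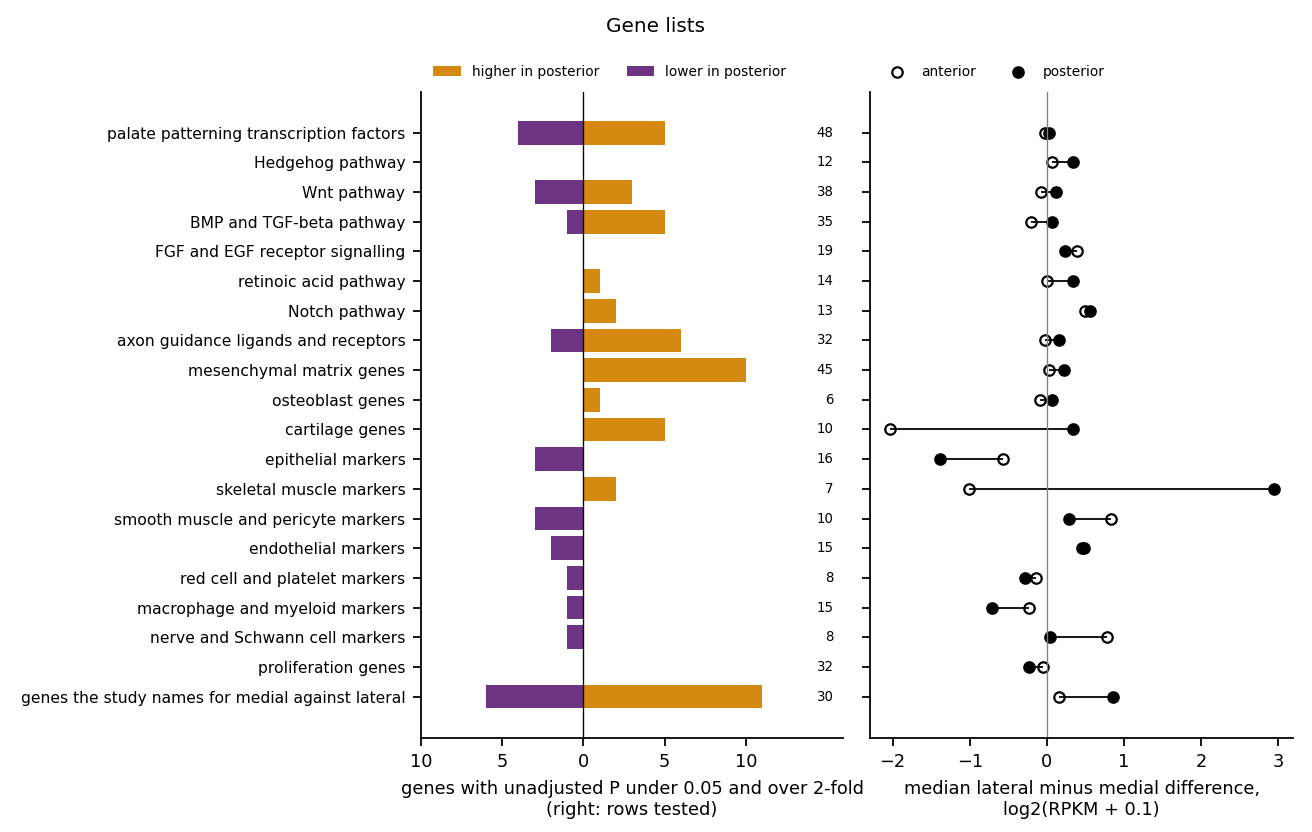
Left, numbers of table entries of each gene list with an unadjusted P under 0.05 and over 2-fold, to the right for lateral gaining towards the posterior and to the left for lateral losing, with the entries tested at the margin. Right, median lateral minus medial difference (log2) of each list in the anterior (open) and posterior (filled) palate, where the cartilage list goes from -2.04 to 0.34 and the skeletal muscle list from -1.01 to 2.94.

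The skeletal muscle, epithelial, red cell and platelet, myeloid, nerve and osteoblast lists each had 1 to 3 entries at the study thresholds. Their shares ran from 6.67% of the entries tested (myeloid) to 28.6% (skeletal muscle), each above the 2.42% of all genes. These lists are so short that 1 entry alone puts a share above 2.42%, so the shares say little. The part of these cells in the results was not tested. Of 7 tested skeletal muscle markers, 2 reached the thresholds, Mylpf and Myl4, both with lateral gaining (2.42% of all genes in both directions). The median contrast of the list was 3.80. The count was 1 without both posterior libraries numbered 1, and the median was 2.31 without posterior medial 2. The summed level of the 21 muscle markers was 329, 51.7 and 65.5 RPKM in posterior lateral and 9.84 to 54.0 RPKM in the 9 other libraries, so that posterior lateral 2 overlapped them. Mylpf, a fast muscle myosin light chain, was at 50.9, 7.78 and 10.8 RPKM in posterior lateral, and Myod1, which defines the muscle lineage, was at 2.45 RPKM in posterior lateral 1 and at 0 in the other posterior libraries. With the sequencing run as a factor no muscle marker reached the thresholds. Of 16 epithelial markers, 3 reached them with lateral losing, the keratin Krt14 among them, and none with lateral gaining (2 and 1 without posterior medial 2). The summed level of all 24 was 69.9 to 141 RPKM in anterior lateral, 151 to 235 RPKM in anterior medial, 47.9 to 76.9 RPKM in posterior lateral and 104 to 281 RPKM in posterior medial, higher in medial in both regions with no overlap.

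Ppbp, a platelet chemokine, was at 22.3, 43.3 and 16.1 RPKM in posterior medial and at 0.308 to 3.40 RPKM in the 9 other libraries (contrast -3.01 ± 1.03, adjusted p = 0.964). Ppbp passed the filter through posterior medial alone, so its contrast gives no support. It was the 1 of 8 red cell and platelet markers at the thresholds, and Cd52, a leukocyte surface antigen, the 1 of 15 myeloid ones, with 110 RPKM in posterior medial 2 and 2.50 to 15.0 RPKM in the 11 others. The summed level of the red cell and platelet list was 931 to 1227 RPKM in posterior medial and an overlapping 570 to 1022 RPKM in posterior lateral. The summed level of the 18 myeloid markers was 280 to 463 RPKM in posterior medial, 160 to 245 RPKM in posterior lateral, 122 to 297 RPKM in anterior medial and 105 to 192 RPKM in anterior lateral. Sox10, a factor of glial and crest cells, was the 1 of 8 nerve and Schwann cell markers at the thresholds (contrast -3.34 ± 1.24, adjusted p = 0.964). It was at 6.10 to 7.62 RPKM in anterior lateral and 0.791 to 1.68 RPKM in anterior medial, and at an overlapping 2.05 to 6.37 RPKM in posterior lateral and 1.33 to 29.6 RPKM in posterior medial. Of the 6 osteoblast genes tested, Runx2, the factor that sets the bone lineage, reached them with lateral gaining (contrast 1.75 ± 0.76, adjusted p = 0.964), at 11.6 to 18.1 RPKM in anterior lateral, 30.2 to 56.3 RPKM in anterior medial, and overlapping posterior values.

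Among the 32 genes with opposite directions at the study thresholds were 3 neighbours on chromosome 7 that are known to be imprinted, Zim1 (chr7:6628154-6649143, mm9), Peg3 (chr7:6658671-6683130) and Usp29 (chr7:6683452-6919931), chosen for mention after their values were seen. Peg3, a zinc finger gene, was at 145, 154 and 150 RPKM in anterior lateral and 202, 193 and 187 RPKM in anterior medial, and at 150, 185 and 171 RPKM in posterior lateral and 145, 55.1 and 114 RPKM in posterior medial. Zim1 was at 15.8 to 17.1 RPKM and 36.2 to 40.1 RPKM in anterior lateral and medial and at 11.8 to 49.6 RPKM and 3.29 to 11.4 RPKM in posterior lateral and medial. All 3 were higher in medial anteriorly and in lateral posteriorly, with contrasts of 1.17 ± 0.43 for Peg3, 1.27 ± 0.36 for Usp29 and 3.10 ± 0.79 for Zim1 (adjusted p = 0.964, 0.812 and 0.634). Posterior medial 2 was the lowest library of its group for each of them, and without it the Peg3 contrast was 0.76, under 2-fold.

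Of the 30 genes the study names for medial against lateral, all were tested and 17 reached the study thresholds for the change of contrast. Of these, 11 had lateral gaining and 6 lateral losing, where 1.20% and 1.22% of all genes did. The 30 genes were picked from these libraries, so this share is not independent evidence. The other 13 of the 30 include genes whose differences had the same sign in both regions. Egfr, the EGF receptor, was at 7.14 to 10.5 RPKM in anterior lateral and 2.21 to 2.83 RPKM in anterior medial, and at 21.8 to 27.0 RPKM in posterior lateral and 2.41 to 4.57 RPKM in posterior medial. Its differences of 1.78 ± 0.26 (adjusted p = 0.0387) and 2.69 ± 0.26 (adjusted p = 0.00615) had the same sign, and their difference of 0.91 ± 0.37 had an adjusted p of 0.964. Fgf10, the mesenchymal ligand that signals to palate epithelium, was at 3.83 to 6.53 RPKM in anterior lateral and 0.472 to 1.74 RPKM in anterior medial, and at 5.26 to 9.23 RPKM and 0.567 to 1.21 RPKM in the posterior groups. Its contrast was 0.74 ± 0.62, and -0.17 under quantile normalization. Osr1, a zinc finger factor of lateral palate mesenchyme, was higher in lateral by 2.24 ± 0.48 and 1.61 ± 0.48, and Aldh1a2, which makes retinoic acid, by 3.15 ± 0.76 and 3.60 ± 0.76. Gal, a neuropeptide precursor, was higher in medial in both regions, at 13.5 to 47.9 RPKM against 0, 0 and 0.555 RPKM in the anterior palate and at 2.89 to 12.9 RPKM against 0, 1.20 and 0 RPKM in the posterior palate. The standard errors of these contrasts, 0.37 to 1.55 on the log2 scale, leave room for differences between the regions that were not detectable here.

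The 13 oral and nasal libraries give a second pair of compartments in the same regions. There the change of the oral-nasal difference along the axis reached the study thresholds for 272 of 11442 genes (2.38%) and an adjusted p of 0.05 for 4 genes (0.0350%). Of the 268 genes above, 248 were tested there, and 45 of these (18.1%) reached the thresholds in both contrasts. Taken from the oral-nasal side, they are 45 of the 225 genes, out of the 272, that were also tested in medial and lateral. In 16 the signs were the same, pairing oral with lateral, and in 29 they were opposite. Thbs2 was not among them, with an oral-nasal contrast of -0.27 (unadjusted P = 0.637), and neither was Slit2, at -0.14 (unadjusted P = 0.713). Gsc had 3.17 there (unadjusted P = 0.0211) with the sign of its lateral-medial contrast, and Pax3 -2.12 (unadjusted P = 1.81e-04), also with the same sign. Pcdh10 had 2.99 there (adjusted p = 0.0385), of the opposite sign. Whether the oral and nasal sections came from the same embryos as the medial and lateral ones is not given in the sources used here.

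**Figure D5:**
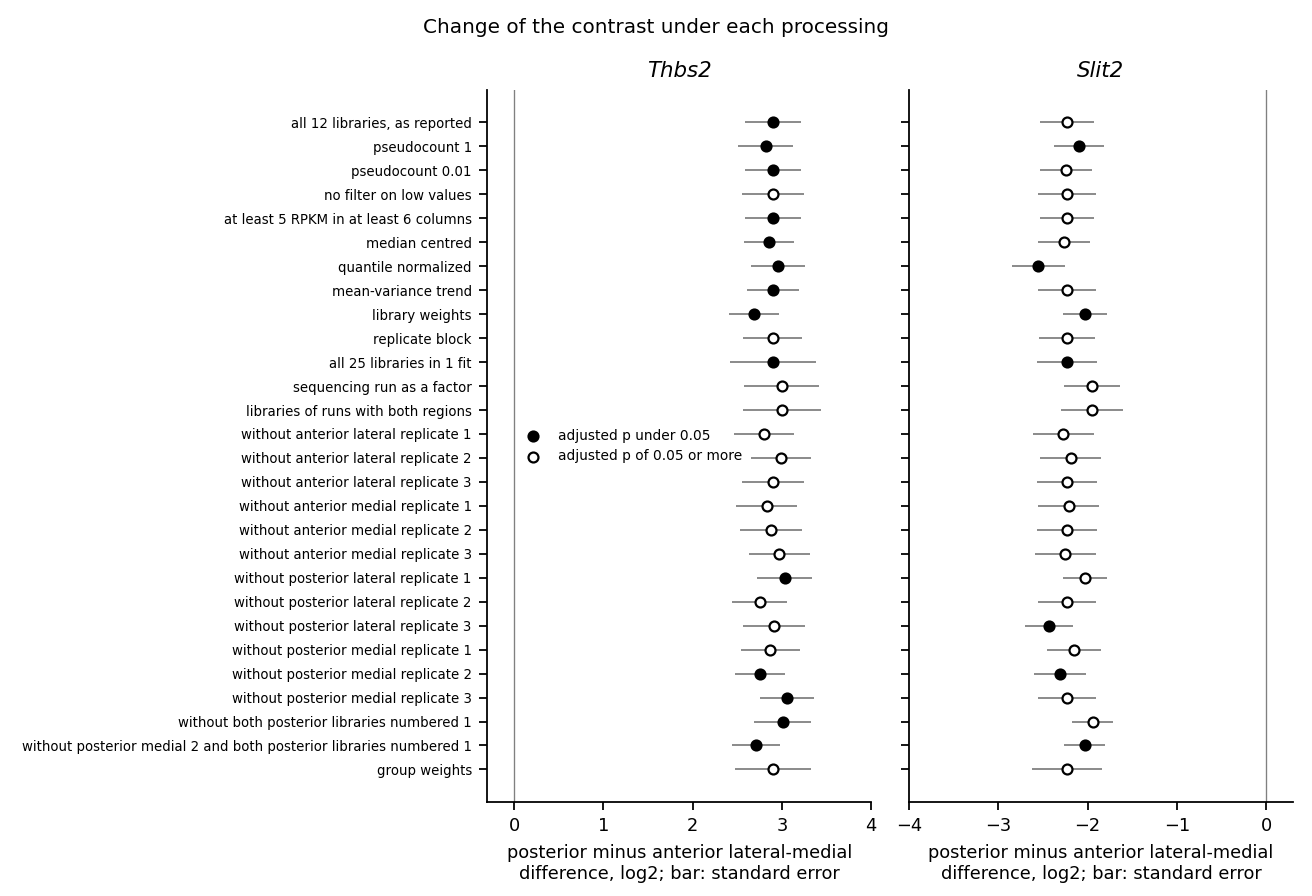
Change of the lateral-medial difference from anterior to posterior (x axis, log2, bars of 1 SE) of Thbs2 and Slit2 with all 12 libraries and under 27 alternative ways to process the data (y axis), filled where the adjusted p was under 0.05. The Thbs2 values stay between 2.69 and 3.06 and the Slit2 values between -2.55 and -1.94, while the adjusted p crosses 0.05 for both.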

How the data were processed

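Total RNA of laser captured palate compartments was amplified, tagmented and sequenced. The authors deposited 1 table of RPKM values for 37406 genes in 25 libraries, with coordinates in mm9. The labels' processing notes name TopHat, and per the study's methods the RPKM values were made in GeneSpring after reads with several alignments and duplicate reads were dropped. No read counts were used here. The depth implied by the steps of low values was 2.33 to 5.93 M reads a library, under the average number of reads per sample that the study states. It is an estimate, since it gives less than a whole read for 1 listed value of Mirlet7e. A depth of this order limits the precision of low genes, and 16704 genes were at 0 in all 12 libraries used.

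Genes that reached 5 RPKM in 3 or more of the 12 libraries entered limma 3.58.1 (R 4.3.3; lmFit, contrasts.fit, eBayes) on log2(RPKM + 0.1), with 4 group means and Benjamini-Hochberg adjustment over 11089 genes. Fold changes on this scale understate low genes. Oral and nasal libraries were fitted separately. Levels are in RPKM and ± after a difference is the SE. Each SE and p-value rests on 1 spread per gene, taken as equal in the 4 groups. The median SD was however 0.15 in anterior lateral and 0.65 in posterior medial. An anterior SE may thus be too wide and a posterior one too narrow. Named genes were the 12 in each direction with an adjusted p under 0.05, filled by the lowest P, those with opposite non-overlapping directions at the study thresholds, 30 genes the study names, and up to 4 of each list. The members and lists were chosen with earlier results of these data known. Some genes that this rule named are not reported here. Symbols with 2 entries were counted by entry. Sequences are from RefSeq, and 16 of the 24 genes with the lowest P had a promoter entry. Alternatives were pseudocounts of 1 and 0.01, other filters, scalings and weights, a mean-variance trend, a replicate block, all 25 libraries, the sequencing run, and leaving out libraries. The script was tested on simulated data. Figures used Python 3.11.15 and matplotlib 3.10.9.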

Additional observations from a re-analysis of the deposited data

Results flagged for a closer look

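The lateral-medial difference of Thbs2 differed between the anterior and the posterior palate by the interaction term of limma, at 2.90 on the log2 scale (adjusted p = 0.0296). The directions were opposite in all 3 libraries of each group. The lateral and medial libraries of 48 genes were apart in both regions with opposite directions, out of 11089 tested. For the 47 genes other than Thbs2 the interaction did not pass an adjusted p of 0.05.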

How the results depend on the processing

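No count of calls at an adjusted p of 0.05 was stable. With limma, 1 gene (Thbs2) became 6 with a pseudocount of 1, 0 without the filter, 2 with quantile normalization, 4 with library weights, 10 with all 25 libraries in 1 fit, 0 with group weights, and 0 to 9 when any 1 library was left out. Without both posterior libraries numbered 1 it was 4, and without these and posterior medial 2 it was 12 (these 2 settings and the group weights were chosen after seeing the data). At the study thresholds the 268 genes became 666 without the filter, 457 and 411 under the last 2 omissions, and 202 to 733 with 1 library left out (733 without posterior medial 3, 508 without posterior medial 1). The 212 genes of the anterior difference became 360 and the 295 of the lateral one 487 with quantile normalization. With all 25 libraries the posterior difference gave 651 and the medial one 951, the latter 879 with the sequencing run as a factor. Leaving out 1 library gave 240 to 1278 posterior and 393 to 1617 medial genes. Where a setting gave 1 call, that call was not always Thbs2. It was Gkn3 with the sequencing run as a factor and in the 8 libraries of shared runs, and Ltbp2 without posterior medial 1. Gkn3 passed the filter through anterior lateral alone and Ltbp2 through posterior lateral alone. The replicate block gave 0 calls at an adjusted p of 0.05 (Thbs2 2.90, adjusted p = 0.216). Of 18 pairs of libraries with the same number 5 had deviations correlated over 0.1, as had 4 of 36 pairs with other numbers. Posterior lateral and medial libraries of the same number correlated at 0.22, 0.04 and 0.23, and those of other numbers at -0.24 to 0.09. In the anterior palate these were -0.14 to -0.02 and -0.07 to 0.12. Whether the numbers pair the libraries is therefore not settled. The main fit takes no pairing, and its 1 call depends on that choice. The anterior and posterior differences could not be fitted with run as a factor.

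Of 3209 contrasts of the 120 named genes under the alternatives, 3185 kept their sign and 24, in 12 genes, did not. These were Aldh1a2 (-0.64 with a pseudocount of 1, -1.61 with quantile normalization), Fgf10 (-0.17 with quantile normalization), Cspg4 (0.07 with library weights), Agtr2 (-0.12) and Ifitm5 (0.09) likewise, Nmbr (0.47), Hba-x (0.05) and Ibsp (-2.76) with run as a factor and in the runs with both regions, and Tubb3 (-0.20), Cspg4 (0.49), Osr1 (0.54) and Agtr2 (-0.29) without the 3 posterior libraries. With 1 library left out, Agtr2 ranged from -0.10 to 0.59, Hbb-y from -0.57 to 0.11, Aldh1a2 from -0.27 to 1.19 and Gli1 from -0.38 to 0.68. The causes were not tested. RPKM without read counts limits what can be said of low genes.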
